A study of Mus musculus with 12 samples.

Results

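The genes described here encode the BBSome, a complex that carries membrane receptors, and 2 of the factors that help to assemble it. They are 7 subunit genes (Bbs1, Bbs2, Bbs4, Bbs5, Bbs7, Bbs9 and Ttc8, whose product is also called BBS8) and 2 chaperonin-like genes (Bbs10 and Bbs12). They were chosen by name, for the part of this complex in leptin receptor trafficking, at a time when earlier results of these data were known. Ensembl identifiers of the deposited table were matched to the GENCODE mouse annotation on GRCm38, which placed the 9 genes among 52638 entries.

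The BBSome forms a coat at the base of the primary cilium and on vesicles, and moves receptors into and out of the ciliary membrane. Its loss causes Bardet-Biedl syndrome, in which obesity is a leading sign, and mice without a working BBSome overeat and respond poorly to leptin. BBS1 binds the long leptin receptor LepRb, and the complex is known to be needed for normal traffic of that receptor in hypothalamic neurons.

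The RNA came from the hypothalamus of adult mice, whose sex is not given in the sources used here. Every mouse, controls included, was LepRb-Cre/Cre, which makes Cre recombinase in cells with LepRb, and also homozygous for the allele R26-GFP:L10a, a fluorescent ribosomal protein that Cre switches on. The Ctrl group is labelled with these alleles alone. The Stat3KO group carried Stat3-flox/flox in addition, so that Stat3, the transcription factor activated by LepRb, can be deleted wherever LepRb-Cre is active. Deletion is therefore tied to the cells that express LepRb-Cre, in the hypothalamus and elsewhere, and each sample is a pool of 5 to 8 mice rather than 1 animal. RNA on tagged ribosomes was captured on beads (bead-bound RNA, enriched for LepRb cells), and the RNA left over was kept as the supernatant. Each of the 3 pools per genotype gave both fractions, which made 4 groups of 3 libraries: Ctrl bead-bound, Stat3KO bead-bound, Ctrl supernatant and Stat3KO supernatant.

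Libraries held 20743217 to 41829907 counts, and every one of the 9 genes was counted in all 12 libraries, at 98 to 4514 counts each. Levels are given as CPM, the usual scaled counts, with library sizes adjusted by TMM. The targeted gene, Stat3, lay at 114 to 160 CPM on Stat3KO beads and 144 to 179 CPM on Ctrl beads, with overlapping groups (log2 fold change -0.24, edgeR adjusted p = 0.999). These are counts over the whole gene, so a loss of single exons cannot be read from them. Replicate 1 stood apart in each group: across genes, the chi-square statistic per gene between replicates 2 and 3 was 5.91 to 16.0, and that of replicate 1 against either was 25.1 to 75.5. For the 9 genes, results that turn on it are given with and without it. Counts of markers and of other gene lists include it unless stated. The fractions differed in cell makeup. The summed level of 7 markers of hypothalamic LepRb neurons was 1649 to 3471 CPM on beads and 80.3 to 134 CPM in the supernatant, and 7 of 7 were higher on beads in each genotype. Between genotypes the sum hides changes in both directions: edgeR called 2 of these 7 higher and 2 lower in Stat3KO bead-bound RNA, and 0 in the supernatant. All 8 oligodendrocyte markers were lower on beads in both genotypes (sums 1672 to 3004 against 4505 to 6859 CPM), as were 7 of 8 astrocyte markers in Ctrl and 8 of 8 in Stat3KO (321 to 527 against 679 to 1103 CPM). Of 7 endothelial markers, 6 in Ctrl and 5 in Stat3KO were higher on beads (15.4 to 145 against 17.8 to 24.9 CPM). For ependymal cells, which carry motile cilia, 10 markers summed to 30.7 to 46.2 CPM on beads and 37.2 to 53.6 CPM in the supernatant. No marker of these lists was at 0 in a whole group. In such bulk samples fewer cells of a type and less RNA per cell cannot be told apart.

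In Caenorhabditis elegans the bbs genes are known as targets of an RFX transcription factor, which binds an inverted repeat called the X-box. The RefSeq promoter table (GRCm38.p6, 250 bases before to 50 after each start) holds a promoter for all 9 genes. It was searched on both strands for the half-site GTNNCC, a gap of 0 to 3 bases and the mirrored half-site GGNNAC. This pattern stood in 3 of the 9 promoters, those of Bbs7, Bbs4 and Bbs1, and in 3.86% of all 32851 promoters. A stricter form, GTTNCC with GGNAAC, left Bbs7 alone and 0.804% of all promoters. The 3 windows are shown because they are the only parts of these promoters with the letters of an X-box under this search. Each is 30 bases on the minus strand, which is the strand of the gene, with the repeat in capitals. That of Bbs7 lies at chr3:36613489-36613518, outside the annotated gene on its upstream side. The window of Bbs4 lies at chr9:59353464-59353493, within the 5′ end of the gene, and the Bbs1 window lies at chr19:4906605-4906634, across its annotated start.
Bbs7: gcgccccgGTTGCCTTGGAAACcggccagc
Bbs4: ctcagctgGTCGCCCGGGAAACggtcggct
Bbs1: ctgagctgGTTGCCAAGGCGACgcctggga
A match of letters describes the sequence and is not evidence of binding. Of these 3 genes, Bbs4 was called higher on beads in Ctrl, and Bbs1 and Bbs7 passed no test described here. The genes were not tested against each other, and the Bbs4 call was lost under some alternatives given below.

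The transcripts of the 9 genes were of unequal abundance in the hypothalamus, and the order was much alike in bead-bound and supernatant RNA. Compared per kilobase of exon, Bbs4, which also sits on the satellites around the centrosome, had the highest level in all 4 groups. The chaperonin-like genes Bbs10 and Bbs12 had the lowest levels in all 4. In Ctrl supernatant Bbs4 was at 14.2 ± 0.774 CPM per kb (SD, n = 3), and no library of another of the 9 genes reached its range. Bbs2, whose product lies in the core of the complex with BBS7 and BBS9, followed at 8.60 ± 0.632, and Ttc8 was next at 8.52 ± 0.211, with overlapping libraries. Bbs5, which encodes the subunit that binds phosphoinositide lipids, was at 6.78 ± 0.962 and overlapped Bbs1 at 6.52 ± 0.201. Lower still were Bbs7 at 4.31 ± 0.50, Bbs9 at 3.28 ± 0.482, Bbs12 at 2.43 ± 0.0863 and Bbs10 at 1.54 ± 0.0133 CPM per kb. These last 4 did not overlap their neighbours in the order. On Ctrl beads Ttc8 stood below Bbs5, Bbs9, at 5.54 ± 0.803 CPM per kb, stood above Bbs7, at 4.10 ± 0.548, without overlap, and Bbs10 and Bbs12 overlapped. Dividing by the longest coding transcript in place of all exon bases raised Bbs4 to 34.1 CPM per kb in Ctrl supernatant and reordered the middle of the list, but left Bbs4 highest and Bbs10 and Bbs12 lowest in all 4 groups.

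**Figure D1:**
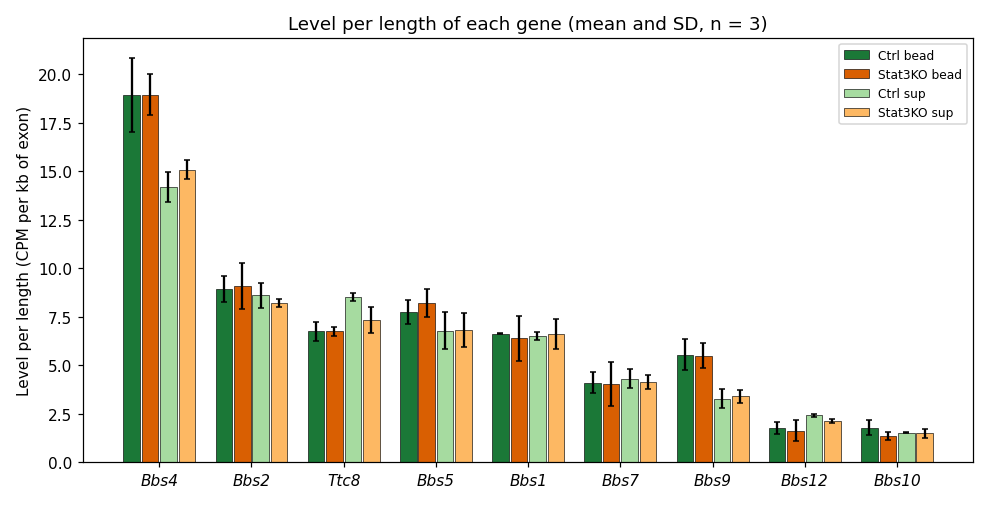
Level of each gene in CPM per kb of exon, as the mean of 3 libraries with the SD as error bars, for Ctrl and Stat3KO bead-bound and supernatant RNA. Bbs4 is highest in all 4 groups, at 14.2 CPM per kb in Ctrl supernatant, and Bbs10 and Bbs12 are lowest.

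Most of these genes varied little. Over the 12 libraries, the SD of log2 CPM was 0.119 for Bbs2 and 0.139 for Bbs1, and 2.22% and 4.46% of tested genes had a smaller one. Bbs9, the most variable, had an SD of 0.411, above that of 55.5% of genes. In Ctrl bead-bound RNA, replicates 1, 2 and 3 of Bbs1, the subunit that docks on the GTPase ARL6 and binds LepRb, read 51.0, 50.5 and 51.0 CPM. Its Ctrl supernatant libraries read 50.0, 51.6 and 48.5 CPM, so the fractions overlapped almost fully. Stat3KO levels of Bbs1 were 39.6, 50.5 and 56.8 CPM on beads and 44.4, 52.2 and 55.7 CPM in the supernatant; replicate 1 was the lowest in both fractions.

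**Figure D2:**
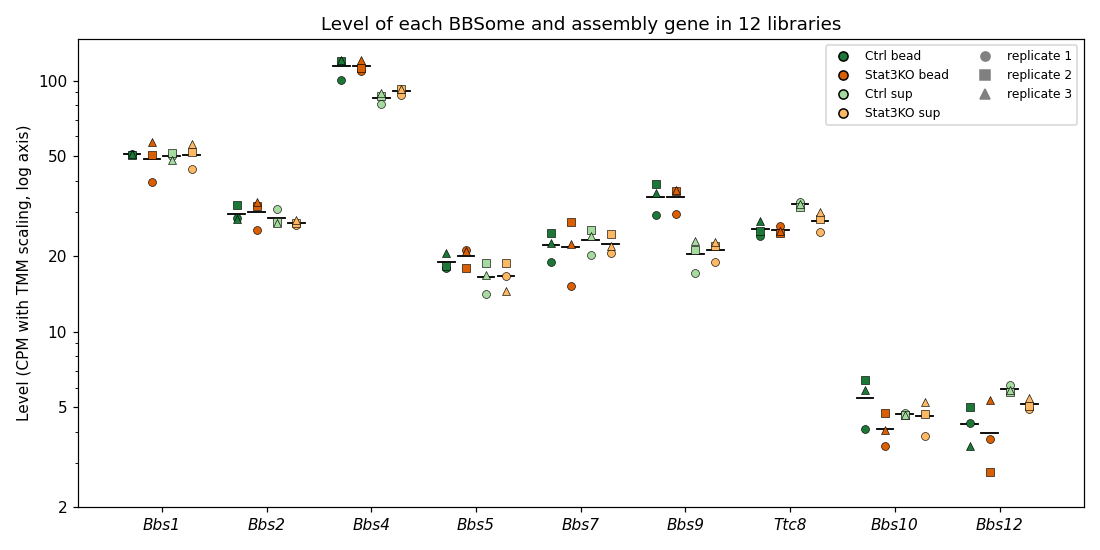
Level of each gene in every library, in CPM on a log axis, with 1 symbol per replicate, 1 colour per group and a bar at the group mean. Bbs4 and Bbs9 sit higher in the bead-bound groups, and the genotypes of a fraction overlap for most genes.

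The comparison of bead-bound with supernatant RNA asks which transcripts are more abundant in RNA enriched for LepRb cells than in the RNA left behind. In Ctrl, 2 of the 9 genes were higher on beads (Bbs9 and Bbs4) and 1 was lower (Ttc8); in Stat3KO, 1 was higher (Bbs9) and 0 were lower. Among all genes tested, 20.7% were higher and 21.2% lower on beads in Ctrl, and 14.7% and 17.3% in Stat3KO, so the counts for these 9 are near what the whole table gave. The median log2 fold change of the 9 was 0.06 in Ctrl and -0.05 in Stat3KO, against -0.01 and -0.02 for all genes tested. With the pool of mice as a block, which compares the fractions within each pool, 4 of the 9 were called in Ctrl (2 higher, 2 lower) and 2 in Stat3KO (both higher). Under that fit 29.4% of all genes were higher and 29.0% lower in Ctrl, and 23.7% and 26.0% in Stat3KO. Scaling by library totals in place of TMM moved the median of all genes to -0.16 in Ctrl and -0.12 in Stat3KO and the split of calls from 3735 higher and 3829 lower to 2387 and 4906 in Ctrl, and from 2669 and 3135 to 1842 and 3716 in Stat3KO.

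Bbs9, which encodes a core scaffold subunit, had the largest difference between fractions among the 9 genes in both genotypes with TMM scaling; with library totals in Ctrl, Bbs12 was as far from 0 (-0.61). In replicates 1, 2 and 3 it was at 29.1, 38.9 and 35.8 CPM on Ctrl beads and 17.2, 21.2 and 23.1 CPM in Ctrl supernatant. Stat3KO beads held 29.6, 36.5 and 36.8 CPM and Stat3KO supernatant 19.0, 21.9 and 22.9 CPM. Every bead-bound library was above every supernatant library, and in all 6 pools the bead level was 1.55 to 1.84 times that of the same pool's supernatant. The log2 fold change was 0.76 in Ctrl (SE 0.149, edgeR adjusted p = 0.00499) and 0.68 in Stat3KO (SE 0.142, adjusted p = 0.00722). Without replicate 1 the values were 0.75 (adjusted p = 0.000181) and 0.70 (adjusted p = 6.98e-05). Scaled by library totals they were 0.61 (adjusted p = 0.00989) and 0.58 (adjusted p = 0.0182). The gene spans chromosome 9, 22475715 to 22888280, on the plus strand (ENSMUSG00000035919), and shares no exon bases with another gene.

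Bbs4 was also more abundant on beads, by a smaller margin. It read 101, 120 and 121 CPM on Ctrl beads and 80.5, 87.1 and 89.6 CPM in Ctrl supernatant. In Stat3KO it read 109, 113 and 121 CPM on beads and 87.7, 93.1 and 92.4 CPM in the supernatant. The fractions did not overlap in either genotype, and the bead level was 1.21 to 1.38 times the supernatant level in 6 of 6 pools. In Ctrl the log2 fold change was 0.42 (SE 0.103, edgeR adjusted p = 0.0129). This call was lost without Ctrl bead-bound replicate 2 (adjusted p = 0.0580), Ctrl supernatant replicate 1 (0.0562) or replicate 2 (0.0654), and with scaling by library totals (0.27, adjusted p = 0.0577). In Stat3KO the log2 fold change was 0.32 (SE 0.110), just outside the threshold at adjusted p = 0.0508. It passed with the pool as a block (adjusted p = 0.00824), with DESeq2 (0.0279) and without replicate 1 of each group (0.00945). Bbs4 (chromosome 9, 59321990 to 59353508, minus strand, ENSMUSG00000025235) shares 194 exon bases with Adpgk on the other strand. Whether the kit kept strand information is not stated, and reads in that stretch cannot be assigned. Adpgk itself was at 22.5 CPM on Ctrl beads and 27.1 CPM in Ctrl supernatant, a difference in the other direction that passed no test (-0.26, adjusted p = 0.0821).

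Ttc8 was the one subunit gene called lower on beads. Its levels were 24.0, 25.1 and 27.6 CPM on Ctrl beads and 33.0, 31.4 and 32.2 CPM in Ctrl supernatant, without overlap. Stat3KO beads read 26.5, 24.8 and 25.2 CPM and Stat3KO supernatant 24.9, 28.2 and 30.05 CPM, which overlapped. In Ctrl the log2 fold change was -0.33 (SE 0.0988, edgeR adjusted p = 0.0273), and the bead level was 0.726 to 0.856 times the supernatant level in the 3 pools. In Stat3KO it was -0.13 (adjusted p = 0.452), with pool ratios of 1.06, 0.878 and 0.840. The difference between the genotypes' ratios was 0.21 on the log2 scale (95% interval -0.13 to 0.55, adjusted p = 1), so the 2 genotypes are not shown to differ. The Ctrl call was lost without Ctrl bead-bound replicate 2 (adjusted p = 0.103) or any 1 Ctrl supernatant library (0.0677, 0.0806 and 0.122 for replicates 1, 2 and 3), and held without replicate 1 of both fractions (-0.28, adjusted p = 0.0277). It was also lost with no filter on low counts (-0.30, adjusted p = 0.112).

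The other subunit genes passed no test between fractions. Log2 fold changes in Ctrl were 0.03 for Bbs1, 0.06 for Bbs2, 0.19 for Bbs5 and -0.07 for Bbs7, with edgeR adjusted p from 0.283 to 0.813. In Stat3KO they were -0.06, 0.13, 0.26 and -0.05, with adjusted p from 0.205 to 0.869. Their precision differed. For Bbs1 in Ctrl the 95% interval ran from -0.18 to 0.23, while that of Bbs7 in Stat3KO ran from -0.50 to 0.40. Bbs7 replicate 1 on Stat3KO beads was at 15.3 CPM, against 27.4 and 22.4 CPM in replicates 2 and 3.

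The 2 chaperonin-like genes did not pass the test; in Ctrl they lay on opposite sides of 0, and in Stat3KO both lay below it. BBS10 and BBS12 work with MKKS and the cytosolic chaperonin CCT to fold BBS7 and bring the core subunits together. Bbs12 was at 4.34, 5.00 and 3.53 CPM on Ctrl beads and 6.15, 5.74 and 5.88 CPM in Ctrl supernatant. The groups did not overlap, and the bead level was below the supernatant level in 6 of 6 pools of both genotypes, at 0.545 to 0.981 times. Its log2 fold change was -0.46 in Ctrl (SE 0.181, edgeR adjusted p = 0.0701) and -0.39 in Stat3KO (SE 0.247, adjusted p = 0.246). The Ctrl value passed with the pool as a block (-0.47, adjusted p = 0.0304) and with library totals (-0.61, adjusted p = 0.0287). Bbs12 (chromosome 3, 37312554 to 37321453, plus strand, ENSMUSG00000051444) shares 32 exon bases with Cetn4 on the other strand, a centrin gene that was higher on beads (14.6 against 8.93 CPM in Ctrl, log2 fold change 0.72, adjusted p = 0.0101). Bbs10 was at 4.09, 6.45 and 5.87 CPM on Ctrl beads and 4.74, 4.68 and 4.66 CPM in Ctrl supernatant, and its fractions overlapped in both genotypes (0.23 with adjusted p = 0.367 in Ctrl, -0.17 with adjusted p = 0.562 in Stat3KO). These were the least counted of the 9 genes, and their intervals were the widest in Ctrl, -0.88 to -0.05 for Bbs12 and -0.21 to 0.67 for Bbs10.

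**Figure D3:**
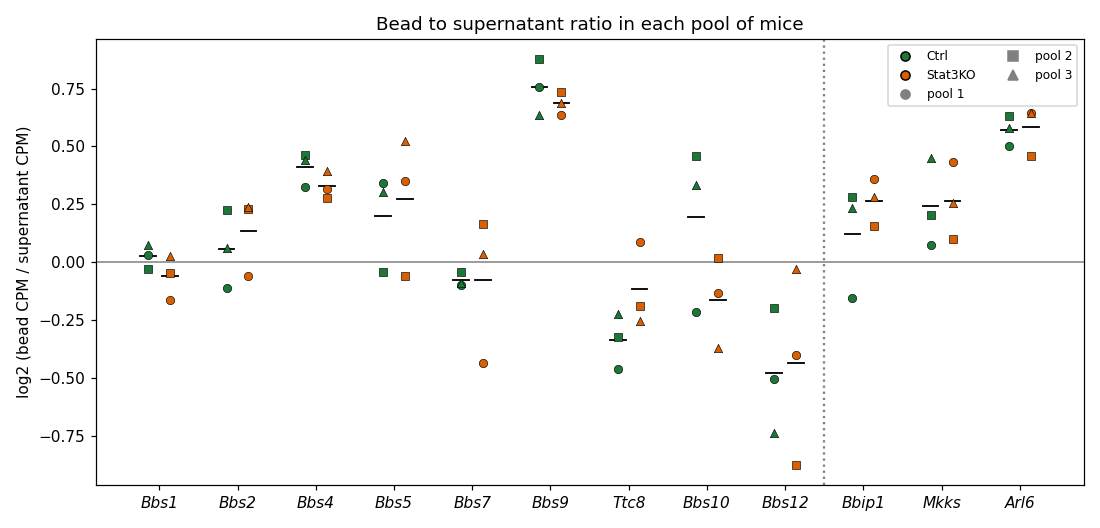
Log2 ratio of bead-bound to supernatant CPM in each pool of mice, with Ctrl and Stat3KO side by side, 1 symbol per pool and a bar at the mean; pools of equal number in the 2 genotypes are different mice. Bbs9, Bbs4 and the partner genes Arl6 and Mkks lie above 0 in all 6 pools, and Bbs12 lies below 0 in all 6.

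Marker levels of other cell types also moved with the fractions, in part as given above. Of 8 neuron markers, 3 were called higher on beads and 1 lower in Ctrl (log2 fold changes -0.999 to 0.77), and 2 and 1 in Stat3KO. Of 7 microglial markers, 6 in Ctrl and 7 in Stat3KO were called lower, and of 6 tanycyte markers 1 and 3. Of 4 oligodendrocyte precursor markers, 3 were called lower in each genotype. The part of these cells in the differences of Bbs9, Bbs4, Ttc8 and Bbs12 was not tested. The capture of LepRb cells was seen in Lepr itself. Lepr was at 5.84, 12.99 and 13.2 CPM on Ctrl beads and 1.90, 2.12 and 2.17 CPM in Ctrl supernatant (log2 fold change 2.37, edgeR adjusted p = 0.000854), and at 9.78, 11.2 and 13.5 against 2.32, 2.495 and 2.10 CPM in Stat3KO (2.30, adjusted p = 8.71e-05).

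The comparison of Stat3KO with Ctrl asks whether the RNA of this trafficking machinery differs in mice whose genotype is meant to remove STAT3 from LepRb cells. None of the 9 genes was called in bead-bound RNA or in the supernatant (0 of 9 by edgeR, by DESeq2 and by limma-voom, and 0 of 9 at an unadjusted p under 0.05 by edgeR). Across all genes tested, 0.449% were called in bead-bound RNA and 0.0108% in the supernatant. The median log2 fold change of the 9 was -0.01 in bead-bound RNA and -0.04 in the supernatant, against -0.0085 and -0.0029 for all genes.

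In bead-bound RNA the 7 subunit genes lay between -0.06 (Bbs1) and 0.08 (Bbs5) on the log2 scale, and their genotypes overlapped. The most precise were Bbs4, at 0.00089 with a 95% interval from -0.30 to 0.30, and Ttc8, at -0.01 with an interval from -0.32 to 0.31. Bbs7 had the widest interval of the subunits, -0.51 to 0.46. These intervals are for each gene alone, without adjustment for the number of genes tested, and are not limits of detection. The size of change that would be called at this depth and number of pools was not tested. Bbs10 had the largest difference of the 9 genes. Stat3KO beads read 3.52, 4.75 and 4.06 CPM against 4.09, 6.45 and 5.87 CPM in Ctrl, with overlapping groups (log2 fold change -0.41, SE 0.241, interval -0.95 to 0.12, adjusted p = 0.999). Bbs12 read 3.74, 2.76 and 5.35 CPM on Stat3KO beads and overlapped Ctrl (-0.12, adjusted p = 0.999).

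In the supernatant 2 of the 9 genes had groups that did not overlap, Ttc8 and Bbs12, both lower in Stat3KO. The share of all genes without overlap is not given here, so this count has no background and nothing is read from it. For Ttc8, whose 6 values are given above, the log2 fold change was -0.23 (SE 0.109, interval -0.46 to 0.01, edgeR adjusted p = 0.819). Bbs12 was at 4.95, 5.06 and 5.46 CPM in Stat3KO supernatant, below the Ctrl values of 5.74 to 6.15 CPM, with a log2 fold change of -0.21 (SE 0.150, adjusted p = 0.878). Neither passed, and the other 7 genes overlapped, at -0.07 to 0.08. Glial markers lay lower in Stat3KO than in Ctrl supernatant, with median log2 fold changes of -0.51 for 8 oligodendrocyte, -0.31 for 4 precursor, -0.30 for 8 astrocyte and -0.40 for 7 microglial markers. None of these was called by edgeR (at an unadjusted p under 0.05 they counted 5, 2, 4 and 3), while DESeq2 called 1 oligodendrocyte, 1 precursor and 1 astrocyte marker lower. No share of all genes at that unadjusted threshold is given here, so nothing is read from the unadjusted counts. With replicates 2 and 3 alone, 0 of the 9 genes were called in either fraction, and 5 oligodendrocyte, 2 precursor, 4 astrocyte and 2 microglial markers were called lower in Stat3KO supernatant. In that setting 5.10% of all genes were called lower in Stat3KO bead-bound RNA and 4.22% in Stat3KO supernatant. The part of these markers in the Ttc8 and Bbs12 values was not tested.

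**Figure D4:**
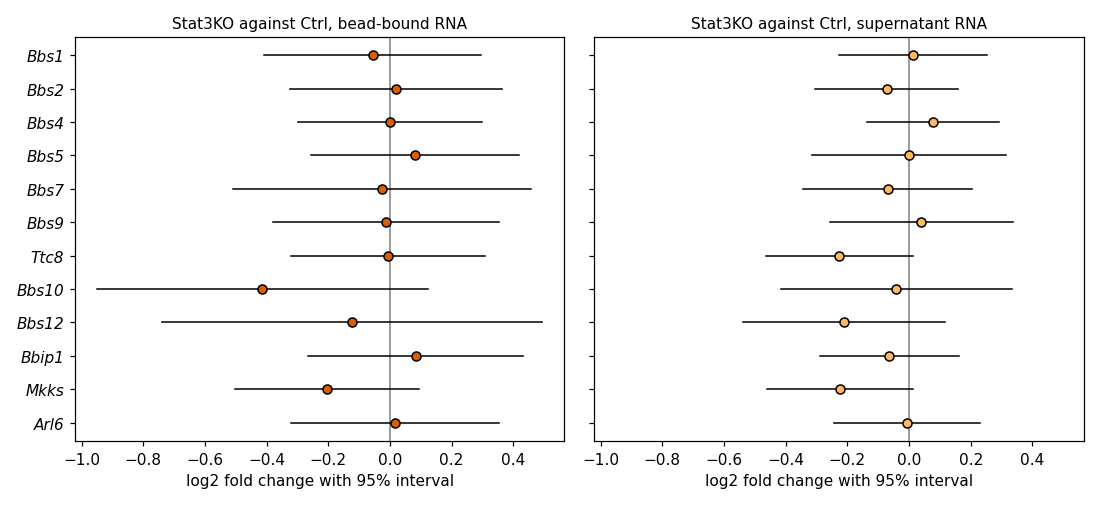
Log2 fold change of Stat3KO against Ctrl for each gene and the 3 partner genes, with the 95% interval of the edgeR fit as a bar, in bead-bound RNA (left) and supernatant RNA (right). All intervals include 0; the point farthest from 0 is Bbs10 in bead-bound RNA, at -0.41.

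The ratio of bead-bound to supernatant RNA was also compared between genotypes in 1 fit of all 12 libraries. Again 0 of the 9 genes were called (adjusted p = 1 for each, and 0 at an unadjusted p under 0.05), where 0.204% of all genes were. The differences ran from -0.38 for Bbs10 (interval -0.99 to 0.23) to 0.21 for Ttc8. For Bbs9 and Bbs4, which were more abundant on beads, they were -0.06 (interval -0.52 to 0.39) and -0.08 (interval -0.41 to 0.24).

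Genes that work with the complex were described from lists. Arl6 encodes the GTPase that brings the BBSome to membranes. It was at 63.7, 72.8 and 73.3 CPM on Ctrl beads and 44.9, 47.0 and 48.9 CPM in Ctrl supernatant, without overlap, and the bead level was higher in 6 of 6 pools (log2 fold change 0.58, SE 0.0972, edgeR adjusted p = 0.00264). The Stat3KO value was 0.58 as well (SE 0.142, adjusted p = 0.0139), a call lost without Stat3KO supernatant replicate 2 (adjusted p = 0.0695) or replicate 3 (0.0547). Bbip1, the small remaining subunit, had a bead-bound mean of 65.2 ± 8.46 CPM and a supernatant mean of 59.7 ± 3.20 CPM in Ctrl (0.13, adjusted p = 0.371). In Stat3KO its difference was 0.26 (adjusted p = 0.153, and 0.0347 with the pool as a block). Mkks, the third chaperonin-like gene, was at 57.1 ± 4.74 against 48.2 ± 2.42 CPM in Ctrl, a log2 fold change of 0.25 that was not called without the block and was called with it and without replicate 1 (adjusted p = 0.0725, 0.0231 and 0.0102), and in Stat3KO the value was again 0.25 (0.147 and 0.0491). Mkks and Bbip1 share 172 and 97 exon bases with Slx4ip and Shoc2 on the other strand. Mkks also shares 944 and 180 exon bases on its own strand with AL731706.1 and AL731706.2, which are not among the counted entries. Between genotypes Mkks did not overlap in either fraction, at -0.20 in bead-bound RNA and -0.22 in the supernatant, and did not pass (adjusted p = 0.999 and 0.819).

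Of 12 other Bardet-Biedl and partner genes, these 3 included, 4 were higher on beads and 0 lower in each genotype, with a median log2 fold change of 0.19 in Ctrl and 0.14 in Stat3KO. They were Arl6, the ubiquitin ligase gene Trim32 (0.61 in Ctrl and 0.48 in Stat3KO), Rab3ip, which encodes the exchange factor for RAB8 that the BBSome binds (0.46 and 0.54), and Rab8a (0.39 and 0.42). Among all genes tested, 20.7% were higher and 21.2% lower in Ctrl, and 14.7% and 17.3% in Stat3KO. The block counted 5 higher and 4 lower in Ctrl and 6 and 2 in Stat3KO. Its shares of all genes were 29.4% higher and 29.0% lower in Ctrl, and 23.7% and 26.0% in Stat3KO. Leaving out 1 library ended some of these calls: Rab3ip in Ctrl without supernatant replicate 2 (adjusted p = 0.0574), Trim32 in Stat3KO without bead-bound replicate 3 (0.0506) or supernatant replicate 2 (0.0515), and Rab8a without Ctrl bead-bound replicate 2, Ctrl supernatant replicate 2 or 3, Stat3KO bead-bound replicate 3 or any Stat3KO supernatant library (0.0511 to 0.119). With replicates 2 and 3 alone, 6 of the 12 genes were higher and 3 lower in Ctrl, and 4 and 2 in Stat3KO. In that setting 4848 of 18348 genes tested were higher and 4774 lower in Ctrl, and 3813 and 4207 of 18290 in Stat3KO. All 8 subunits of the CCT chaperonin, which folds actin and tubulin besides BBSome parts, were higher on beads in both genotypes, with medians of 0.65 and 0.60, and no call was lost on leaving out 1 library. Cct7 had the largest change in Ctrl (0.76, SE 0.0944, edgeR adjusted p = 0.000766) and Cct2 in Stat3KO (0.78, SE 0.111, adjusted p = 0.00142).

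Genes of intraflagellar transport, the motor-driven trains on which the BBSome rides, were mixed. Of 17 tested genes of complex B, 5 were higher and 1 lower on beads in Ctrl, and 3 and 0 in Stat3KO, with medians of 0.26 and 0.23; the block gave 9 and 1, and 7 and 1. Shares of all genes were 20.7% higher and 21.2% lower in Ctrl and 14.7% and 17.3% in Stat3KO, as above. With the block they were 29.4% and 29.0% in Ctrl, and 23.7% and 26.0% in Stat3KO. Leaving out Ctrl supernatant replicate 2 ended the Ctrl calls of Ift20, Cluap1 and Ift80 (adjusted p = 0.206, 0.176 and 0.130). The Ift80 call was lost without any 1 Ctrl library (adjusted p = 0.0566 to 0.203), and those of Ift20 and Cluap1 without most of them. The largest were Ift22 (0.67 in Ctrl, 0.58 in Stat3KO) and Ift74 (0.58 and 0.49). Ift22 and Ift46 were not called in Stat3KO without supernatant replicate 2 (adjusted p = 0.0512 and 0.0557). Ttc30a2, the remaining gene of 18, was too low to test, and its near-copies Ttc30a1 and Ttc30b could share reads with it. Of 6 genes of complex A, Ttc21b was lower in Ctrl (-0.38, edgeR adjusted p = 0.0439, and 0.0682 to 0.151 without any 1 Ctrl library) and 0 were called in Stat3KO, while the block called 1 higher and 2 lower in Ctrl and 1 each in Stat3KO.

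Other ciliary genes were called in both directions, as were genes of the whole table. Of 11 genes of the ciliary membrane and its signalling, 3 were higher and 3 lower on beads in Ctrl, and 4 and 2 in Stat3KO; with the block these were 5 and 4, and 6 and 4, against 29.4% and 29.0% of all genes in Ctrl and 23.7% and 26.0% in Stat3KO. Alms1, mutated in Alström syndrome, another ciliary disease with obesity, was lower (-1.02 in Ctrl, -0.98 in Stat3KO). So was Tulp3, an adaptor that delivers receptors to cilia (-0.89 and -0.99; the Ctrl call was lost without bead-bound replicate 2, adjusted p = 0.0587), while Unc119, which carries lipid-modified proteins to cilia, was higher (0.83 and 0.75). Among 11 receptors known from neuronal cilia, 5 were higher and 1 lower in Ctrl and 2 and 1 in Stat3KO. Without the block, 20.7% of all genes were higher and 21.2% lower in Ctrl, and 14.7% and 17.3% in Stat3KO. With the block the receptor counts were 7 and 2, and 4 and 2. Leaving out Ctrl supernatant replicate 2 ended the Ctrl calls of Npy5r (adjusted p = 0.0521), Gpr161 (0.0844) and Sstr3 (0.132), the last 2 of which were also lost without most other single Ctrl libraries. Npy2r, the neuropeptide Y receptor whose entry into cilia needs the BBSome, was the highest of these, at 71.2 ± 24.0 CPM on Ctrl beads and 18.6 ± 4.11 CPM in Ctrl supernatant (log2 fold change 1.93, edgeR adjusted p = 0.000932; 1.57 in Stat3KO, adjusted p = 0.000309). Prlhr, a receptor gene at 1.67 ± 0.253 CPM on Ctrl beads, was also higher (1.80 in Ctrl and 1.27 in Stat3KO, with adjusted p = 0.00201 and 0.0468, the second lost at 0.0719 to 0.171 when replicate 2 or 3 of Stat3KO beads or any Stat3KO supernatant library was left out), and the dopamine receptor gene Drd1 was lower in Ctrl (-1.16, adjusted p = 0.00150).

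Of 7 genes for the leptin receptor and its display at the surface, Lepr, Socs3 and Leprot were higher on beads in Ctrl, and Lepr and Socs3 in Stat3KO. Leprot, whose product limits surface leptin receptor, changed by 0.53 in Ctrl (edgeR adjusted p = 0.00674). It stood at 0.57 in Stat3KO (adjusted p = 0.0808, and 0.000492 with the block). Socs3, the leptin-induced inhibitor of LepRb signalling, changed by 1.47 and 1.15, the second not called without Stat3KO supernatant replicate 3 (adjusted p = 0.0529). The block called 4 higher and 1 lower of these 7 in Ctrl. Of all genes in Ctrl, 20.7% were higher and 21.2% lower without the block, and 29.4% and 29.0% with it. In Stat3KO these shares were 14.7% and 17.3% without the block, and 23.7% and 26.0% with it. The RFX factors and their partners showed the other direction: of 7, 1 was higher and 4 were lower in Ctrl, and 0 and 3 in Stat3KO, with medians of -0.69 and -0.57; the block called 0 higher and 5 lower in Stat3KO. Rfx4 was at 9.46 ± 3.06 CPM on Ctrl beads and 21.6 ± 1.95 CPM in Ctrl supernatant (-1.19, adjusted p = 0.00403). Foxj1, the master factor of motile cilia, was at -1.04 in Ctrl (adjusted p = 0.0129, and 0.0536 without bead-bound replicate 2) and also stands in the ependymal marker list. Rfx7 was at -0.93 (adjusted p = 0.00120). Oligodendrocyte and astrocyte marker sums were lower on beads as given above. Ependymal sums overlapped, with 1 of 10 markers called higher and 2 lower in Ctrl and 0 and 3 in Stat3KO. The part of these cells in the RFX values was not tested.

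**Figure D5:**
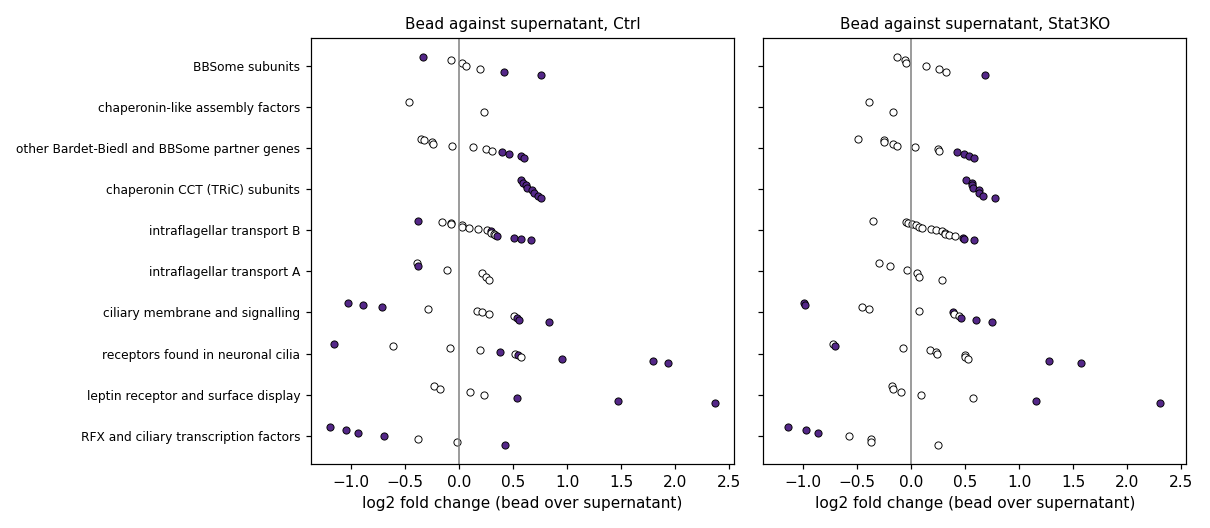
Log2 fold change of bead-bound against supernatant RNA for every tested gene of each list, in Ctrl (left) and Stat3KO (right); filled points passed edgeR's test at an adjusted p under 0.05 and open points did not. All 8 CCT subunits lie above 0.5 in both genotypes, while the BBSome subunits spread around 0 with Bbs9 farthest right.

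Between genotypes, no gene of these 8 lists was called in either fraction or in the ratio (0 by edgeR, DESeq2 and limma-voom; at an unadjusted p under 0.05 by edgeR, 2 receptor genes in bead-bound RNA, and 1 receptor gene, 1 complex B gene and 1 RFX-list gene in the supernatant, all lower in Stat3KO). No share of all genes at that unadjusted threshold is given here, so nothing is read from the unadjusted counts. Without replicate 1, Npy2r (-0.99), Npy5r (-0.97), Drd1 (-1.02) and Leprotl1 (-0.56) were called lower in Stat3KO bead-bound RNA. Lztfl1, Npy2r, Drd1, Leprot, Leprotl1 and Rfx3 were called lower in the supernatant, at -1.70 for Drd1 to -0.33 for Leprotl1. In that setting 5.10% and 4.22% of all genes were called lower in the 2 fractions, and these names were chosen after their values were seen.

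Across the 12 libraries the subunit genes did not move as 1 block. The correlation of each gene's log2 CPM with the mean of the other subunits was highest for Bbs4 (Pearson r = 0.745, n = 12 libraries) and Bbs9 (0.644), intermediate for Bbs2 (0.543), Bbs10 (0.486), Bbs5 (0.386), Bbs1 (0.348) and Bbs7 (0.278), and negative for Bbs12 (-0.399) and Ttc8 (-0.519). The 5 genes most like the mean of the 7 subunits among all tested were Tro (0.984), Wdr36 (0.982), Fubp1 (0.980), Ftsj3 (0.977) and Asb3 (0.976). These correlations describe libraries that share pools, fractions and replicate 1, and the 5 are the highest of a whole table.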

How the data were processed

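Raw counts per gene were deposited by the authors for 12 libraries, 1 column each, with no normalisation; the columns were mapped through the sample numbers in the labels. Per the submitters' processing notes, STAR 2.5.3a aligned the reads (50 cycles, single end, per the labels) and mm10 was the build. The counting tool, its annotation release and any strand setting were not given in those notes or labels. Identifiers were matched to GENCODE M21 on GRCm38.

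The test was that of edgeR 4.0.16 (R 4.3.3): filterByExpr (minimum count 10, minimum total 15), TMM scaling, quasi-likelihood F test, 2-sided, Benjamini-Hochberg adjusted p under 0.05 over all genes tested. Each comparison used its own 6 libraries, and the genotype difference of ratios used all 12. The SE is the log2 fold change divided by the square root of F, and intervals are 95%. DESeq2 1.42.0, limma-voom (limma 3.58.1), other scalings, no filter, a replicate block, leaving out each library and replicates 2 and 3 alone (added after the data were seen) were alternatives. Likeness used log2 CPM with a prior count of 2.

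Within a genotype, bead-bound and supernatant libraries of 1 number come from 1 pool, per the labels, and their deviations from group means correlated at 0.196 to 0.367. The numbers do not pair the genotypes (-0.0851 to 0.141). Libraries of a group are separate pools of mice; no pair of libraries agreed within sampling noise. Without molecular identifiers, intervals from depth would cover counting error alone.

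All 9 genes are named. From each list, up to 4 called genes with the largest changes are named, and Bbip1, Mkks, Arl6 and Lepr always. The genes and lists were chosen with earlier results of these data known. The tests were tried on simulated data whose planted changes were larger than any difference of the 9 genes. The outcome is not given here and does not describe how well differences of their size are found. Protein sequences were not used here.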

Additional observations from a re-analysis of the deposited data

How the results depend on the processing

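The count of the 9 genes called stayed at 0 for both genotype comparisons and for the ratio between genotypes under every alternative run. Between fractions in Ctrl, 3 were called, and leaving out 1 library gave 1 to 3: 1 without bead-bound replicate 2 or supernatant replicate 1 or 2. With library totals 3 were called (1 higher, 2 lower), with no filter 2 and with the replicate block 4. In Stat3KO, 1 was called, and 2 with DESeq2, limma-voom, RLE scaling, all 12 libraries in 1 fit, the replicate block or replicates 2 and 3 only; leaving out 1 library gave 1 to 2. Each second call was Bbs4. The replicate block, which pairs the fractions of a pool, changed no other call of the 9 genes than those of Bbs4 and Bbs12; between genotypes, where the numbers pair nothing, it gave 0 calls of the 9.

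Bbs9 was called in both genotypes under all alternatives. Of the differences that passed no test, those near 0 changed sign, and the cause was not tested. For Stat3KO against Ctrl in bead-bound RNA, replicates 2 and 3 alone gave log2 fold changes of 0.0567 for Bbs1, -0.0694 for Bbs4, -0.0236 for Bbs5 and 0.0517 for Bbs7. No filter gave -0.00585 for Bbs4, and RLE scaling and library totals gave 0.00181 and 0.00023 for Ttc8. In the supernatant, Bbs1 was at -0.00632 with library totals, Bbs10 at 0.0676 with replicates 2 and 3, and Bbs5 at 0.00421 with DESeq2, 0.0045 with RLE scaling, 0.0080 with all 12 libraries and 0.00123 with the replicate block. Between fractions, library totals gave -0.122 for Bbs1 and -0.0905 for Bbs2 in Ctrl, and replicates 2 and 3 gave 0.094 for Bbs7 in Stat3KO.

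Leaving out 1 library at a time gave these ranges of log2 fold change for the differences that changed sign. In Stat3KO against Ctrl beads they were -0.167 to 0.0827 for Bbs1, -0.0412 to 0.129 for Bbs2, -0.0809 to 0.0424 for Bbs4, -0.24 to 0.177 for Bbs7, -0.123 to 0.0885 for Bbs9, -0.0493 to 0.0482 for Ttc8 and -0.395 to 0.0759 for Bbs12. The supernatant ranges were -0.0548 to 0.0967 for Bbs1, -0.107 to 0.103 for Bbs5, -0.164 to 0.00312 for Bbs7, -0.0744 to 0.139 for Bbs9 and -0.139 to 0.0658 for Bbs10. Between fractions, Bbs7 ran from -0.173 to 0.0182 in Ctrl and -0.243 to 0.156 in Stat3KO, and Bbs1 from -0.172 to 0.0787 in Stat3KO. For the ratio between genotypes the ranges were -0.198 to 0.0546 for Bbs1, -0.0285 to 0.173 for Bbs5, -0.149 to 0.232 for Bbs7, -0.173 to 0.0448 for Bbs9 and -0.202 to 0.308 for Bbs12. The 3 pools per group limit the precision of all 9 genes.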
